A study of Ovis aries with 16 samples.

Results

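The putative piRNAs oar-piR-11578, oar-piR-789, oar-piR-6442 and oar-piR-606 were chosen by name for their higher level in underfed than in well-fed testis. They are 4 of the 4996 piRNAs, and of the 5267 small RNAs, in the deposited values. Since they were selected on the contrast between diets, their values by diet are given as a description with no test. PIWI proteins are the Argonaute proteins of the germ line, and piRNAs are the small RNAs that guide them to matching transcripts. They are best known for silencing transposons while germ cells develop, and in the mammalian testis they are most abundant in meiotic and post-meiotic germ cells. Some are cut from long non-coding precursors and others from the 3′UTR of mRNAs. The study's annotation assigned oar-piR-6442 to the 3′UTR of KRTAP10-2, which encodes a keratin-associated protein, and named no gene for the others.

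Testis was taken from 16 sexually mature Merino male sheep, with 1 small RNA library per male. The 8 well-fed males were fed to gain 10% of body mass over 65 days, and the 8 underfed males were fed to lose 10% over the same 65 days. The purpose was to find small RNAs in the testis that respond to nutrition. Each piRNA level is given as CPM, the reads of that piRNA per 1000000 piRNA reads of its library. One read has a fixed CPM value in each library, so the whole number of reads behind every CPM was recovered.

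Libraries of well-fed males held between 25552 and 721305 piRNA reads (median 562817), and those of underfed males between 18110 and 625230 (median 280058). Well-fed replicate 5 and underfed replicates 6 and 8 stood apart, since each had fewer than 100000 miRNA reads and between 34.5% and 51.1% of the 4996 piRNAs were at 0 in them. In the other 13 libraries, called deep here, between 0.400% and 4.64% of the piRNAs were at 0. A single read was worth 39.1 CPM in well-fed replicate 5, 55.2 CPM in underfed replicate 6 and 29.95 CPM in underfed replicate 8. A count of 0 allowed a level of up to 3 reads, which was 4.16 to 12.3 CPM in the deep libraries and 89.9 to 166 CPM in these 3. Intervals below are exact 95% binomial intervals, and both they and these limits cover counting error only, since amplified reads are not independent molecules.

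All 4 piRNAs had reads in 7 of the 8 underfed males, and underfed replicate 6 had 3 of the 4. In the well-fed males, well-fed replicate 1 had all 4, 2 males had 2 of them, 3 males had 1, and 2 males (replicates 3 and 4) had none. Replicates 3 and 4 were not shallow, with 325307 and 570653 piRNA reads. The pattern was present in deep libraries as well: no member was at 0 in any of the 6 deep underfed libraries, while in the 7 deep well-fed libraries oar-piR-11578 was at 0 in 2, oar-piR-789 in 6, oar-piR-6442 in 6 and oar-piR-606 in 4.

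**Figure D1:**
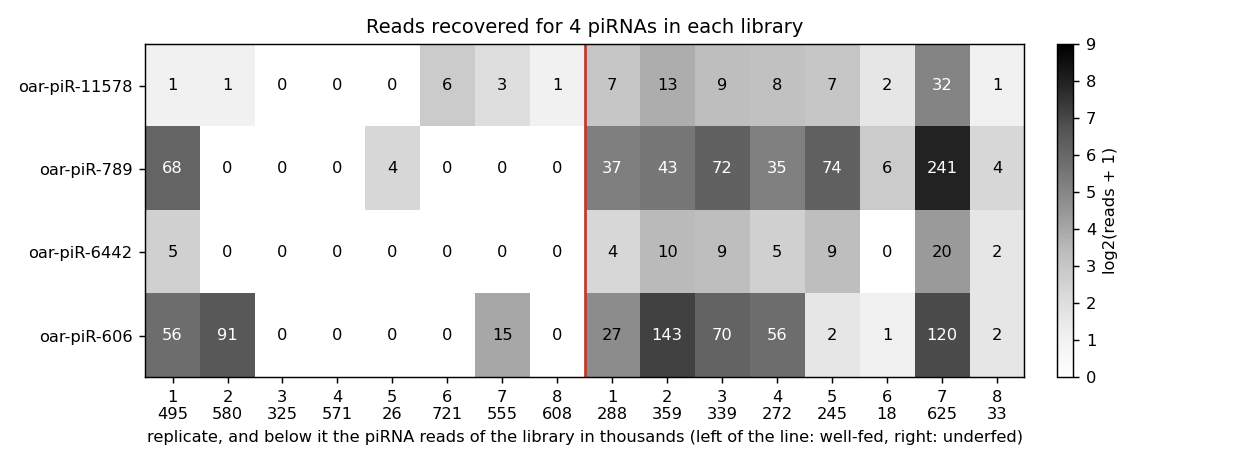
Reads recovered for each of the 4 piRNAs (rows) in each of the 16 libraries (columns, well-fed on the left and underfed on the right of the line), shaded by log2(reads + 1), with the rounded piRNA reads of each library below its replicate number. The right side is filled except for oar-piR-6442 in underfed replicate 6, while well-fed replicates 3 and 4 have 0 reads in every row.

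The piRNA oar-piR-11578 was a low piRNA that was found in both diets. In the well-fed males it ranged from 0 to 8.32 CPM (median 1.68), with 0 reads in 3 males, 1 read in 3 males, 3 reads in replicate 7 and 6 reads in replicate 6. In the underfed males it ranged from 24.3 to 110.4 CPM (median 29.7). Every underfed value lay above every well-fed value, so the listed values did not overlap. The place of well-fed replicate 5 was not measured, however, since 0 reads there allowed up to 117 CPM, above all underfed values. The values came from few reads, and the interval of the highest well-fed value (8.32 CPM, 3.05 to 18.1) overlapped that of the lowest underfed value (24.3 CPM, 9.76 to 50.03). At the median of the deep underfed libraries, well-fed replicate 6 would have held 20.9 reads of it. Well-fed males averaged 2.39 ± 2.99 CPM against 42.1 ± 28.9 CPM for underfed males (SD, n = 8), a ratio of 17.6. With 1 male left out the ratio ranged from 13.5 (without underfed replicate 6) to 27.3 (without well-fed replicate 6). In deep libraries the means were 2.73 ± 3.05 CPM (n = 7) against 32.7 ± 9.90 CPM (n = 6), a ratio of 12.0.

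For oar-piR-789 the well-fed males were split between absence and a level like that of the underfed males. It had 0 reads in 6 well-fed males, all of them deep libraries, 68 reads (137 CPM, 107 to 174.02) in well-fed replicate 1 and 4 reads (157 CPM, 42.7 to 401) in the shallow replicate 5. In the underfed males it ranged from 119.8 to 385 CPM (median 171), from 4 reads in replicate 8 to 241 reads in replicate 7. Both well-fed males that had oar-piR-789 lay above the lowest underfed male, and 4 of the 8 underfed males lay above both. At the median of the deep underfed libraries, the 6 libraries at 0 would have held between 55.5 and 123 reads, and 0 reads allowed up to 9.22 CPM in the shallowest of them. Means were 36.7 ± 68.2 CPM for well-fed against 216 ± 109 CPM for underfed males (SD, n = 8), a ratio of 5.88. Without the 3 shallow libraries the means were 19.6 ± 51.9 CPM and 213 ± 110.1 CPM and the ratio was 10.9, since well-fed replicate 5, left out here, was 1 of the 2 well-fed males that had it. The ratio was 9.66 without well-fed replicate 1 alone and 11.0 without well-fed replicate 5 alone. It was 5.15, the lowest with 1 male left out, when a well-fed male at 0 was left out.

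The lowest of the 4 was oar-piR-6442, the piRNA assigned to the 3′UTR of KRTAP10-2. Among the well-fed males it was found in replicate 1 alone, with 5 reads (10.1 CPM, 3.28 to 23.6). Among the underfed males it ranged from 0 to 59.9 CPM (median 27.2), with 4 to 20 reads in the deep libraries, 2 reads in replicate 8 and 0 reads in replicate 6. The 7 underfed males that had it all lay above well-fed replicate 1, and the remaining underfed male was at 0 in a library where 3 reads were worth 166 CPM. The intervals of well-fed replicate 1 and of the lowest underfed value above 0 (13.9 CPM, 3.78 to 35.5) overlapped. In the 6 deep well-fed libraries without it, between 8.85 and 19.6 reads would have been present at the median of the deep underfed libraries. On average it stood at 1.26 ± 3.57 CPM among well-fed against 26.9 ± 17.6 CPM among underfed males (SD, n = 8), a ratio of 21.3 that became 17.97 in deep libraries. Without well-fed replicate 1 no well-fed male had a read of it, and no ratio is given.

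The level of oar-piR-606 varied most among the underfed males. It had 0 reads in 5 well-fed males, 4 of them in deep libraries, and was present in well-fed replicate 1 with 56 reads (113 CPM, 85.4 to 147), replicate 2 with 91 reads (157 CPM, 126 to 193) and replicate 7 with 15 reads (27.0 CPM, 15.1 to 44.6). In the underfed males it ranged from 8.17 to 398 CPM (median 143). All 3 well-fed males that had it lay above the lowest underfed male, and 4 underfed males lay above all well-fed males. The lowest underfed value, 8.17 CPM in replicate 5, came from 2 reads in a deep library, and its interval (0.989 to 29.5 CPM) lay below those of well-fed replicates 1 and 2. In the 4 deep well-fed libraries at 0, between 64.7 and 144 reads would have been present at the median of the deep underfed libraries. Well-fed males averaged 37.1 ± 62.2 CPM against 152 ± 125 CPM for underfed males (SD, n = 8), a ratio of 4.11 that became 4.34 in deep libraries. With 1 male left out the ratio ranged from 3.16 (without underfed replicate 2) to 7.62 (without well-fed replicate 2).

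**Figure D2:**
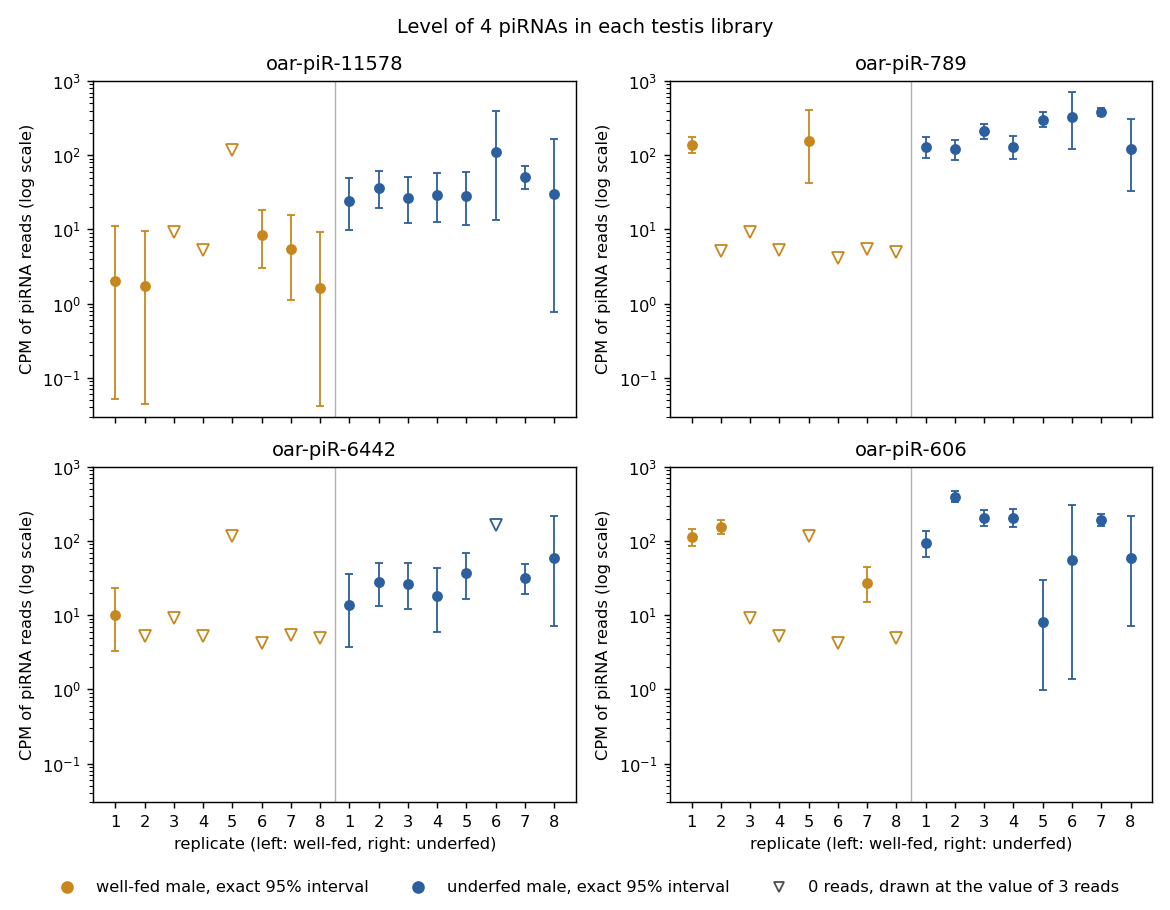
CPM of the piRNA reads (log scale) for each of the 4 piRNAs in each library, 1 panel per piRNA, with well-fed males in orange on the left and underfed males in blue on the right. Points are single libraries with exact 95% binomial intervals, and open triangles are libraries with 0 reads, drawn at the value of 3 reads. Only for oar-piR-11578 did all 8 underfed points lie above all well-fed points. In that panel the triangle of well-fed replicate 5, at 117 CPM, lies above every point. For oar-piR-789 the triangles of the deep well-fed libraries, at 9.22 CPM or below, lie below every point, while for oar-piR-606 the point of underfed replicate 5 (8.17 CPM) lies below the triangle of well-fed replicate 3.

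The 4 piRNAs thus fell into a pair of higher level and a pair of lower level. In underfed males, oar-piR-789 ranked 736 and oar-piR-606 ranked 960 of the 4996 piRNAs by mean CPM, while oar-piR-11578 ranked 2244 and oar-piR-6442 ranked 2834. In well-fed males, oar-piR-11578 and oar-piR-6442 had the lowest means of the listed piRNAs, at ranks 4995 and 4996. In the same males oar-piR-606 ranked 2442 and oar-piR-789 ranked 2459. The middle ranks of the latter pair were carried by 3 and 2 males. A piRNA as low in well-fed males as the former pair could be listed only if it was higher in underfed males. Over all well-fed libraries, 12, 72, 5 and 162 of 3881005 piRNA reads were oar-piR-11578, oar-piR-789, oar-piR-6442 and oar-piR-606, against 79, 512, 59 and 421 of 2179489 in the underfed libraries.

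The diet contrast over all piRNAs gives the background of these values. With limma on log2(CPM + 1), a Benjamini-Hochberg false discovery rate (FDR) under 0.05 and a ratio of means above 1.5 were met in the direction of the underfed males by 1 piRNA of 4996 (0.0200%), which was oar-piR-11578. By listed CPM, the same piRNA was the only one with every underfed male above every well-fed male (0.0200%). The place of well-fed replicate 5 was not measured for it, since 0 reads there allowed up to 117 CPM. Also by listed CPM, 6 piRNAs had every underfed male below every well-fed male. The count of calls was 0 without well-fed replicate 3, well-fed replicate 4 or underfed replicate 7, 2 without well-fed replicate 1, well-fed replicate 5 or underfed replicate 6, and 3 without the 3 shallow libraries, where oar-piR-789 and oar-piR-6442 were called too. It was also 0 with a pseudocount of 0.5 CPM, and in a fit with a replicate block. Nothing is read from these counts, since the contrast chose the members. On the log2(CPM + 1) scale, the differences (underfed minus well-fed) were 3.88 (SE 0.60) for oar-piR-11578 and 5.79 (SE 1.07) for oar-piR-789. They were 3.82 (SE 0.75) for oar-piR-6442 and 4.21 (SE 1.20) for oar-piR-606. The median over all piRNAs was -0.23 and the range -3.81 to 5.79. The added 1 CPM shrinks differences between low values and stands in for zeros, so the size of these differences depends on it. For oar-piR-789 the difference was 4.08 with a pseudocount of 5 CPM and 6.54 with 0.5 CPM.

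**Figure D3:**
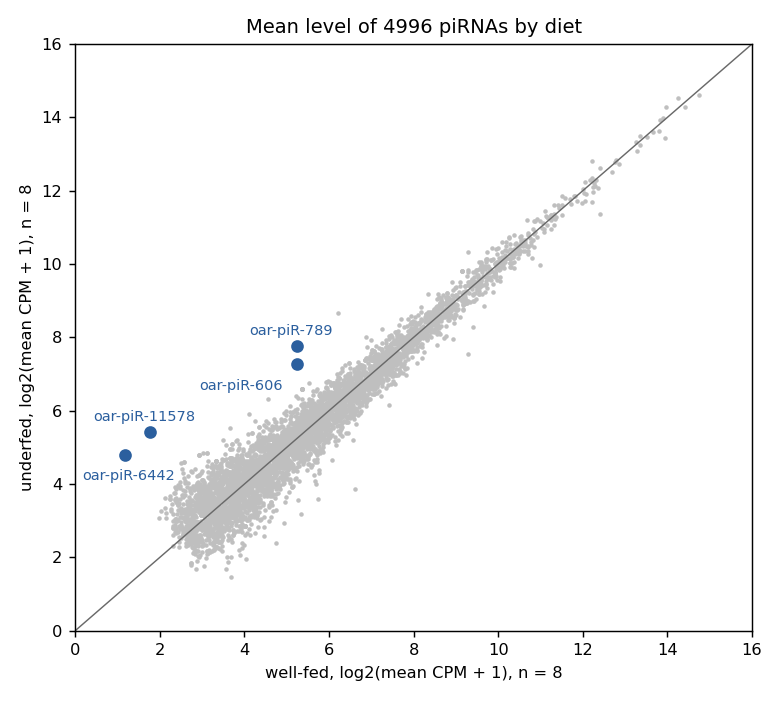
Mean level of each of the 4996 piRNAs in well-fed males (horizontal axis) and underfed males (vertical axis), both as log2(mean CPM + 1) over 8 males, with the line of equal means. Most piRNAs lie along the line, and the 4 named piRNAs (blue) lie above it with ratios of means between 4.11 and 21.3.

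Among the listed piRNAs, presence by diet was an uncommon kind of difference in this direction. The number of males with a value above 0 was higher by at least 3 in underfed than in well-fed males for 7 of 4996 piRNAs (0.140%), and all 4 members were among them. The difference was 6 males for oar-piR-789 and oar-piR-6442, 5 for oar-piR-606 and 3 for oar-piR-11578, and no other piRNA reached 5. Nothing is read from the members' place here, since they were chosen for being higher in underfed males. The others of the 7 were oar-piR-2771, oar-piR-187 and oar-piR-7525, which are named after their values were seen. Over all piRNAs the median difference was 0, and 134 piRNAs were above 0 in at least 3 more well-fed than underfed males. Underfed libraries had fewer piRNA reads and included 2 of the 3 shallow libraries. The part of depth in these counts was not tested.

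**Figure D4:**
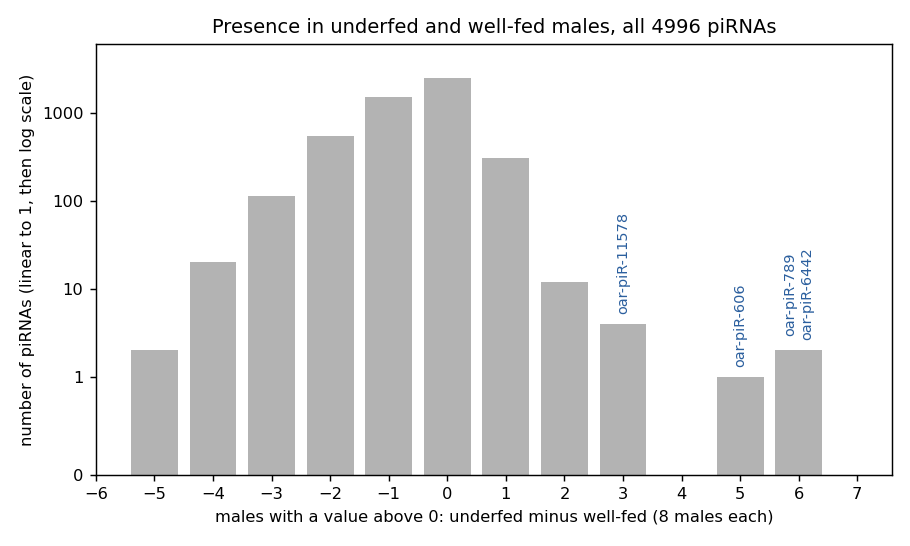
Number of piRNAs (vertical axis, linear to 1 and then logarithmic) by the number of underfed males minus the number of well-fed males with a value above 0 (horizontal axis, 8 males per diet), for all 4996 piRNAs. The tallest bar is at 0, and oar-piR-606, oar-piR-789 and oar-piR-6442 are the piRNAs in the bars at 5 and 6.

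Zeros in deep libraries beside high levels in others were rare among the listed piRNAs as well. Each listed piRNA was above 5 CPM in at least 8 of the 16 libraries, so this rarity was partly set by the list. At least 50 reads in 1 library and 0 reads in at least 3 others of the 13 deep libraries were found for 12 of 4996 piRNAs (0.240%), among them oar-piR-789 and oar-piR-606. Within the 7 deep well-fed libraries alone, the same was found for 3 piRNAs (0.0600%), which were oar-piR-789, oar-piR-606 and oar-piR-2771. Males of the same diet thus differed in whether these piRNAs were found at all. In well-fed replicate 1, oar-piR-789 and oar-piR-606 were at 137 and 113 CPM, within the range of the underfed males, and in replicate 2 oar-piR-606 was at 157 CPM while oar-piR-789 had 0 of 579797 reads.

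A filter on low values bears on the members directly. Every deposited piRNA was above 5 CPM in at least 8 of the 16 libraries, and all 4 members passed, mostly through the underfed males. For oar-piR-6442 the count was exactly 8 libraries, 1 well-fed and 7 underfed, as it was for 190 piRNAs in all. The counts were 10 libraries for oar-piR-11578 and for oar-piR-789 (2 well-fed and 8 underfed each) and 11 for oar-piR-606 (3 and 8). A piRNA at or below 5 CPM in 5, 6 or 7 well-fed males, as these were, could be listed only if it was above 5 CPM in at least 5, 6 or 7 underfed males, so the presence of these 4 in underfed males was partly set by the list. In the 3 shallow libraries a single read was above 5 CPM. Since piRNAs below the filter were not listed, the shares of piRNAs with zeros given above hold for the list only.

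The spread among the underfed males is described for members that were chosen for high underfed values, so it is not independent of that choice. In the 6 deep underfed libraries the highest value was 2.11 times the lowest for oar-piR-11578, 2.65 times for oar-piR-6442, 3.22 times for oar-piR-789 and 48.8 times for oar-piR-606. The highest levels were not in the same male: underfed replicate 7 was highest for oar-piR-11578 (51.2 CPM) and oar-piR-789 (385 CPM), replicate 5 for oar-piR-6442 (36.8 CPM) and replicate 2 for oar-piR-606 (398 CPM). Underfed replicate 5 had the second highest oar-piR-789 of these (302 CPM, 237 to 379) and the lowest oar-piR-606 (8.17 CPM). The lowest oar-piR-789 of these was 119.8 CPM in replicate 2 (86.7 to 161.4).

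The members did not covary detectably among the underfed males. Over 14 relations on log2(CPM + 1), 6 between pairs of members, 4 with the log2 number of piRNA reads and 4 with the log2 ratio of miRNA to piRNA reads, the FDR of Pearson's r ranged from 0.593 to 0.974 (two-sided exact permutation tests over 40320 pairings, n = 8). The relation with the largest r was between oar-piR-11578 and oar-piR-6442 (r = -0.79, exact p = 0.0947, FDR 0.593), but Spearman's rho was 0.02 (exact p = 0.977, FDR 0.977). It rested on underfed replicate 6, which had 0 reads of oar-piR-6442 and 2 reads of oar-piR-11578. Without that male r was 0.31, without replicate 7 alone it was -0.88, and without both it was 0.41. For oar-piR-606 and the log2 ratio of miRNA to piRNA reads, r was 0.43 (exact p = 0.269, FDR 0.754) and rho 0.76 (exact p = 0.0368, FDR 0.321), and r was 0.79 without the 2 males farthest from the median ratio. For oar-piR-606 and the log2 number of piRNA reads, r was 0.38 (exact p = 0.349, FDR 0.786), rho was 0.74 (exact p = 0.0458, FDR 0.321), and r without the 2 farthest males was 0.50. The piRNA reads of a library are also the divisor of its CPM, so they enter both sides of the relations with either read measure. The permutation tests take the 2 sides as separate, so nothing is concluded from those relations. Of the 14 relations, 0 had an FDR under 0.05 by either measure, 0 had an unadjusted p under 0.05 by Pearson's r and 2 by Spearman's rho (the 2 of oar-piR-606 above), and with 8 males weak relations could not be detected. No member was above 0 in 6 or more well-fed males, so the relations were not computed there.

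The 5 piRNAs with the most similar profile over the 16 libraries were taken for each member. For oar-piR-11578 they were oar-piR-3132 and oar-piR-3133, which share identical values (r = 0.78), oar-piR-1448 (0.76), oar-piR-728 (0.75) and oar-piR-1068 (0.73). For oar-piR-789 they were oar-piR-4622 (0.84), oar-piR-1539 and oar-piR-1540, which also share values (0.75), oar-piR-6442 (0.74) and oar-piR-664 (0.73). For oar-piR-6442 they were oar-piR-2916 (0.74), oar-piR-789 (0.74), oar-piR-3132 and oar-piR-3133 (0.73) and oar-piR-3612 (0.72). For oar-piR-606 they were oar-piR-2916 (0.72), oar-piR-11265 (0.68), oar-piR-187 (0.68), oar-piR-11578 (0.67) and oar-piR-847 (0.66). These correlations describe log2(CPM + 1) over 16 libraries that share both diets and depths. Within the 8 underfed males alone, r ranged widely. For oar-piR-11578 it was 0.90 with oar-piR-1448, 0.72 with oar-piR-728, -0.01 with oar-piR-3132 and -0.53 with oar-piR-1068. For oar-piR-6442 it was 0.96 with oar-piR-3612 and 0.93 with oar-piR-2916, and for oar-piR-789 it was -0.45 with oar-piR-4622. These r include shallow underfed replicate 6, with 0 reads of oar-piR-6442 and 2 of oar-piR-11578, and were not computed without it. The median r of each member with all other piRNAs lay between -0.18 and 0.07.

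The piRNA with the profile most like that of oar-piR-789 was present throughout. The level of oar-piR-4622 was 25.7 ± 8.84 CPM for well-fed against 51.1 ± 6.52 CPM for underfed males (SD, n = 8), with reads in all 16. The piRNAs listed with the next lower and next higher numbers had few zeros. They were oar-piR-11570 and oar-piR-11579 (r = 0.35 and 0.38 with oar-piR-11578), oar-piR-788 and oar-piR-790 (0.26 and -0.28 with oar-piR-789), oar-piR-6441 and oar-piR-6444 (0.43 and 0.02 with oar-piR-6442) and oar-piR-605 and oar-piR-607 (0.27 and 0.11 with oar-piR-606). Each of these neighbours was above 0 in 6 to 8 males of each diet. Within the 8 underfed males, shallow replicate 6 included, r was 0.88 for oar-piR-6441 with oar-piR-6442. For the other neighbours with their members it was -0.55 to 0.52. No member had values identical to those of another piRNA, as 626 piRNAs did.

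The composition of the libraries moved with diet beside these results. The ratio of miRNA to piRNA reads was 0.355 to 0.908 (median 0.580) in well-fed and 0.517 to 3.13 (median 1.59) in underfed males. When CPM were taken over miRNA and piRNA reads together, the ratios of underfed to well-fed means were 10.6 for oar-piR-11578, 3.55 for oar-piR-789, 12.0 for oar-piR-6442 and 2.14 for oar-piR-606, so each stayed above 1. The summed CPM of 3 germ cell miRNAs (candidate-miR-30, candidate-miR-31 and candidate-miR-161, homologues of the miR-34 and miR-449 family) was 47497 to 71079 in well-fed and 10978 to 58155 in underfed males. That of 3 blood and immune cell miRNAs was 3293 to 9150 in well-fed and 2595 to 9186 in underfed males, and that of 2 smooth muscle miRNAs was 153985 to 210989 and 138660 to 215633. All 8 markers were above 0 in all 16 libraries. Their part in the results was not tested, and in whole testis fewer cells of a type and less RNA per cell cannot be told apart.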

How the data were processed

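Small RNAs from whole testis of 16 males were sequenced, 1 library per male, and diet and replicate number were taken from the sample labels. Base calls were made with CASAVA 1.8 and the genome build was Oar_v3.1, according to the submitters' processing notes. To make the piRNA values, the authors kept reads of the longer size class that mapped perfectly to the genome with Bowtie, passed them through a piRNA predictor trained on other species, and retained sequences with a single location. The authors then deposited CPM for each library in a single column that holds miRNAs and piRNAs, and the values of each class are relative to the reads of that class. The authors tested them with edgeR, and every member was among the piRNAs they reported as differing between diets. The fit described below is another test, so its count of calls is not the study's count.

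Reads were recovered by dividing each CPM by the value of 1 read. All piRNA values were whole within 0.05 reads, and 98.5% to 100% of low miRNA values were multiples of 0.5 reads. Libraries under 100000 miRNA reads were called shallow.

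The contrast of 8 underfed with 8 well-fed males was fitted with limma 3.58.1 in R 4.3.3 on log2(CPM + 1), with TMM factors (30% of log ratios and 5% of abundances trimmed) and an empirical Bayes trend. It covered the 4996 piRNAs above 5 CPM in at least 8 of 16 libraries, which are all of those deposited. A call required FDR under 0.05 and a ratio of arithmetic mean CPM above 1.5 or under 0.67 on the side of the modelled change. A count test had been planned as an alternative. It was not run, since the stacked CPM columns were not accepted as recovered counts, and voom on recovered reads was used instead. The fit was also run on simulated counts, which did not copy high levels in some males beside absence in others. No support for calls of such piRNAs is drawn from that run. Correlations had exact permutation tests (Python 3.11.15, numpy 2.4.6, pandas 2.3.3, scipy 1.17.1). Samples are separate males, and in the reported fit each library had equal weight whatever its depth. The p-values thus measure the spread between males together with counting error.

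The members, lists and tests were chosen with earlier results of these data known. The piRNAs named are the 4 members, the 5 piRNAs most like each by Pearson's r, the neighbours by number, and a few named after their values were seen, as stated there. Alternatives were other pseudocounts, no TMM, no filter, scaling over both classes, the replicate block, voom, FDR alone, at least 3 reads for presence, each male left out, and deep libraries only. miRNAs other than the markers were not analysed here.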

Additional observations from a re-analysis of the deposited data

Results flagged for a closer look

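Of 8 groups of 8 males tried (4 piRNAs in 2 diets), 2 held a male whose gap to the nearest other, as a share of the group's range, was above Dixon's 95% critical value. Among groups of normally distributed values chance gives this in about 1 of 20, a rate that does not apply to groups with many zeros. The level of oar-piR-11578 in underfed replicate 6 was 110.4 CPM, with a gap of 0.688 of the range, and came from 2 reads in the library with the fewest piRNA reads (18110). The level of oar-piR-6442 in well-fed replicate 1 was 10.1 CPM from 5 reads, with a gap equal to the whole range, which any value above 0 would have given, since the other 7 well-fed males were at 0.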

How the results depend on the processing

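The number of piRNAs called higher in underfed males, 1 of 4996 in the reported fit, was small enough for single choices to move it. Any piRNA called was a member, from which nothing is read, since the members were chosen on this contrast. The number called, over all piRNAs and among the members alike, was 0 with a pseudocount of 0.5 CPM, 2 with a pseudocount of 5 CPM (oar-piR-789 and oar-piR-11578), and 3 both with voom on recovered reads and without the 3 shallow libraries (oar-piR-789, oar-piR-11578 and oar-piR-6442 each time). Unadjusted p under 0.05 was found for 229 piRNAs in the reported fit, 220 with a pseudocount of 0.5 CPM and 191 with the replicate block. Leaving out 1 male gave 0 to 2 calls, with 0 without well-fed replicate 3, well-fed replicate 4 or underfed replicate 7 (167, 196 and 233 with an unadjusted p under 0.05), and 2 without well-fed replicate 1, well-fed replicate 5 or underfed replicate 6. It was 1 without TMM, with scaling over both classes (4100 piRNAs tested) and with FDR alone. Leaving out the filter gave the same fit again, since every deposited piRNA passes it.

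A fit with a replicate block, taken from the replicate numbers, called 0 piRNAs. Deviations of same-numbered males gave no sign of a pairing (r -0.08 to 0.14 over 8 pairs, mean 0.02, against a mean of 0.01 for other pairs). Counting error in low values could hide one, so whether the numbers pair the males was not settled.

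At a minimum of 3 reads, oar-piR-11578 was present in 2 and not 5 well-fed males and oar-piR-606 in 5 and not 8 underfed males. Without the shallow libraries oar-piR-789 was present in 1 well-fed male. With 1 male left out, oar-piR-789 was present in 1 to 2 well-fed males (1 without replicate 1 or replicate 5) and oar-piR-6442 in 0 to 1 (0 without replicate 1).

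Since the members were chosen as higher in underfed males, nothing is read from the unchanged sign of their log2 differences. They ranged from 2.55 to 4.36 for oar-piR-11578, 4.08 to 6.57 for oar-piR-789, 2.20 to 4.56 for oar-piR-6442 and 2.84 to 4.83 for oar-piR-606 over 8 settings, lowest each time with a pseudocount of 5 CPM, and with 1 male left out all lay between 3.69 and 6.57. With 1 male left out oar-piR-6442 fell below the filter in 8 of 16 fits and had no value there. The median over all piRNAs moved from -0.23 to -0.01 with voom and to -0.04 without the shallow libraries. No correlation passed under any of 12 alternatives, but r itself moved widely. With the log2 number of piRNA reads, r of oar-piR-11578 was -0.54 in the underfed males and 0.87 without the 2 shallow ones. That of oar-piR-6442 was 0.55, 0.95 without underfed replicate 8 and -0.60 without underfed replicate 6. The edgeR fits on recovered reads, with TMM or with median-of-ratios factors, were not run. Depth limited the 3 shallow libraries, where 0 reads allowed 89.9 to 166 CPM. Elsewhere the cause of a moved count was not tested.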
